A study of Mus musculus with 6 samples.

Results

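The genes described here are the clustered microRNA loci Mir143 and Mir145a and 8 protein-coding genes used as markers of vascular smooth muscle and of the mural cells that wrap small vessels, namely Acta2, Tagln, Myh11, Cnn1, Smtn, Rgs5, Pdgfrb and Notch3. They were chosen by name, and the 10 genes stand among 54189 features of the RNA-seq table and 2265 features of the small RNA-seq table. The microRNAs (miRNAs) were read in small RNA-seq and the 8 genes in RNA-seq. Both assays were made from the Achilles tendon of 4-week-old mice, with 1 mouse and 1 library per genotype and assay. Control mice carried floxed Dicer alleles without Cre (Dicer f/f). ScxHt mice carried Cre knocked into Scx with unfloxed Dicer (ScxCre/+ Knock In:Dicer +/+). Dicer cKO mice carried the same knock-in together with floxed Dicer (ScxCre/+ Knock In:Dicer f/f). The knock-in takes the place of 1 Scx allele, so ScxHt and Dicer cKO mice both had a single intact allele of Scx, the tendon transcription factor whose locus drives Cre. Cre is thus made where Scx is active, chiefly in cells of tendon and ligament, and the study raises incomplete and mosaic recombination as a possibility. Smooth muscle and mural cells of the tendon vessels are not the cells this Cre line is meant to recombine.

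Smooth muscle cells contract through smooth muscle isoforms of actin and myosin together with calponin, smoothelin and transgelin. Serum response factor and its partner myocardin drive these genes by binding CArG boxes in their regulatory DNA. Mural cells are held at the vessel wall by platelet-derived growth factor B from endothelium acting on Pdgfrb, and by Jagged ligands acting on Notch3. miR-143 and miR-145 are processed from neighbouring hairpins, are abundant in smooth muscle, and are known for maintaining its contractile state, in part through repression of Klf4. Dicer cuts such hairpins into mature miRNAs.

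A CArG box is CC, then 6 bases that are A or T, then GG. Among the 8 genes, 5 had an entry in the RefSeq table of promoters (Acta2, Cnn1, Smtn, Rgs5 and Notch3), each covering 250 bases before to 50 bases after the gene start in GRCm38.p6. No CArG box was found on either strand in these 5 windows, and the box was found in 1.63% of all 32851 promoters of this length. A second search, chosen after that result was seen, allowed 1 C or G among the 6 core bases. A box of either kind was then found in 9.98% of all promoters, and among the 5 windows in that of Acta2. The 2 Acta2 sites are shown because Acta2 had the highest level of the 8 genes, and the CArG boxes of the skeletal and cardiac actin genes Acta1 and Actc1 are set beside them to show how the sequences differ. Capitals mark the box, each sequence is read 5′ to 3′ on the minus strand on which the genes lie, and the distance runs from the first base of the box to the gene start in the RefSeq table. That start can differ from the end of the gene in GENCODE, and for Acta2 it lies inside the longer GENCODE gene given with its counts.
Acta2 at chr19:34255438-34255467, 84 bases: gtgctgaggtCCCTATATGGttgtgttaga
Acta2 at chr19:34255388-34255417, 34 bases: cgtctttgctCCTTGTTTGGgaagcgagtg
Acta1 at chr8:123894829-123894858, 73 bases: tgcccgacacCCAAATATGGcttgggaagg
Actc1 at chr2:114052903-114052932, 47 bases: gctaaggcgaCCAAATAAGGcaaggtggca
Both Acta2 boxes hold a single C or G in the core, whereas these Acta1 and Actc1 boxes hold A and T alone. Acta1 held 2 further boxes with 1 C or G in the core, and Actc1 held 3. These matches are a description of letters and were not tied to any measurement of factor binding.

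The 3 RNA-seq libraries held 14959399 to 16244232 counts and the 3 small RNA-seq libraries 8435829 to 10986541. Because each genotype was 1 mouse, the spread between mice could not be measured and genotypes were not tested against each other. A ratio is the quotient of 2 libraries' counts after division by their DESeq2 size factors. The range after it is an exact 95% interval (Clopper-Pearson) that covers counting error only. A gene is called lower below a ratio of 0.60 and higher above the reciprocal of that limit, rounded to 2 decimals. To be called it needed a mean normalized count in the 2 libraries above 50 (RNA-seq) or above 15 (small RNA-seq). Dicer cKO/Control and ScxHt/Control share the Control library. The targeted gene Dicer1 had 1919 counts in Control, 2025 in ScxHt and 1621 in Dicer cKO, and Dicer cKO stood at 0.877 (0.821 to 0.938) of Control. This count is over the whole gene and does not separate transcripts lacking the floxed part. Scx, which the knock-in interrupts on 1 allele, had 1055, 686 and 371 counts in the same order. In a bulk sample, fewer cells of a type cannot be told apart from less RNA per cell.

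Ordered by RPKM (RPKM scales reads by the length of the gene and the depth of the library, so that levels of different genes can be compared), Acta2 stood at the top in all 3 libraries and Cnn1 at the bottom. In Control the levels were 87.2 RPKM for Acta2, 78.9 for Rgs5, 46.3 for Smtn, 22.1 for Pdgfrb, 13.9 for Tagln, 12.8 for Myh11, 7.37 for Notch3 and 0.135 for Cnn1. Of these neighbours in the order, the counting intervals of Tagln and Myh11 alone overlapped. The order in ScxHt was Acta2 at 93.9 RPKM, Smtn at 57.6, Rgs5 at 51.2, Pdgfrb at 22.8, Tagln at 13.5, Myh11 at 9.55, Notch3 at 5.24 and Cnn1 at 0.255, so that Smtn stood above Rgs5 in this library. In Dicer cKO it was Acta2 at 119 RPKM, Rgs5 at 79.8, Smtn at 48.2, Tagln at 24.3, Myh11 at 19.7, Pdgfrb at 19.1, Notch3 at 5.90 and Cnn1 at 0.977. Tagln thus stood above Pdgfrb in the Dicer cKO library only, and Myh11 and Pdgfrb had overlapping intervals there. All 8 genes had reads in every library, together 0.102% of counts in Control, 0.0919% in ScxHt and 0.114% in Dicer cKO.

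**Figure D1:**
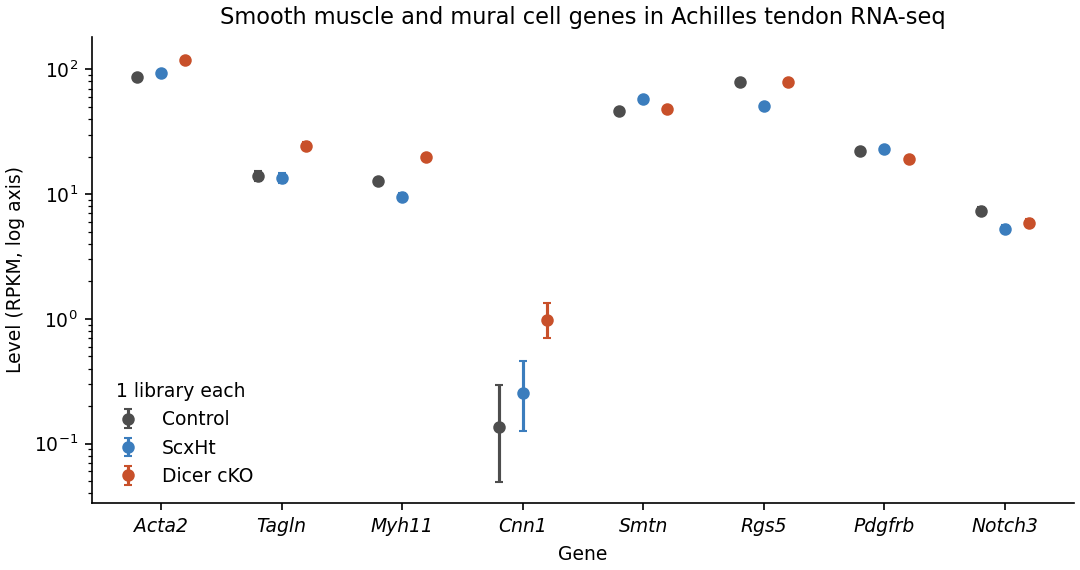
Level of the 8 smooth muscle and mural cell genes in RPKM (log axis) for the Control, ScxHt and Dicer cKO libraries, 1 library each, with bars for the 95% counting interval. Acta2 stands between 87.2 and 119 RPKM, and Cnn1 lies between 0.135 and 0.977 RPKM. Acta2, Tagln, Myh11, Cnn1 and Rgs5 have their highest point in Dicer cKO. For Rgs5 the points of Dicer cKO (79.8) and Control (78.9) have overlapping intervals.

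Of the 5 contractile genes, Tagln alone was called higher for Dicer cKO/Control. Acta2 and Myh11 had ratios above 1 that did not reach the limit, Cnn1 had too few counts to be called, and Smtn did not differ beyond counting error. Acta2, which encodes smooth muscle actin, had 2522 counts in Control, 2636 in ScxHt and 3178 in Dicer cKO. Against Control, the ratio was 1.31 (1.24 to 1.38) in Dicer cKO and 1.002 (0.948 to 1.06) in ScxHt, and Dicer cKO/ScxHt was 1.33 (1.26 to 1.40). Control and ScxHt did not differ in Acta2 beyond counting error, and Dicer cKO stood above both. Acta2 lies at chr19:34241090-34255590, minus strand (GENCODE vM21, GRCm38).

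Tagln encodes transgelin, an actin-binding protein of smooth muscle, and lies at chr9:45929619-45936058, minus strand. It had 449 counts in Control, 425 in ScxHt and 723 in Dicer cKO. Relative to Control it stood at 1.672 (1.48 to 1.89) in Dicer cKO and at 0.907 (0.792 to 1.04) in ScxHt, and relative to ScxHt at 1.87 (1.66 to 2.12) in Dicer cKO. The Dicer cKO/Control ratio lay just inside the limit for a higher call, and its interval reached below that limit. Tagln overlaps Pcsk7 and Gm48529 on the opposite strand, and the strand setting of the counting was not given in the sources used here.

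Myh11 encodes the smooth muscle myosin heavy chain and lies at chr16:14194535-14291372, minus strand. It had 1574 counts in Control, 1141 in ScxHt and 2231 in Dicer cKO, so ScxHt was the lowest library and Dicer cKO the highest. Dicer cKO had 1.47 (1.38 to 1.57) times the Control level and 2.15 (2.01 to 2.32) times the ScxHt level, and ScxHt/Control was 0.695 (0.643 to 0.750). Of the 7 genes past the count minimum, Myh11 had the largest ratio for Dicer cKO/ScxHt, with an interval wholly above the limit for a higher call.

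Cnn1, the gene for calponin (chr9:22099216-22109630, plus strand), had 6 counts in Control, 11 in ScxHt and 40 in Dicer cKO. Its ratio for Dicer cKO/Control was 6.92 (2.92 to 19.98), from so few reads that it did not pass the count minimum, and it was not called. Smtn encodes smoothelin, a protein of contractile smooth muscle, and lies at chr11:3517523-3540612, minus strand. It had 3293 counts in Control, 3976 in ScxHt and 3159 in Dicer cKO, a Dicer cKO/Control ratio of 0.996 (0.948 to 1.05). ScxHt was at 1.16 (1.10 to 1.21) of Control, and Dicer cKO at 0.875 (0.835 to 0.918) of ScxHt. Smtn was highest in ScxHt, unlike the other 4 contractile genes. It overlaps Gm11946 and Gm11947 on the opposite strand.

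None of the 3 mural cell genes was called for Dicer cKO/Control or ScxHt/Control. Rgs5, a regulator of G protein signalling and a marker of pericytes (chr1:169655501-169695813, plus strand), had 5826 counts in Control, 3669 in ScxHt and 5426 in Dicer cKO. Dicer cKO stood at 0.967 (0.932 to 1.004) and ScxHt at 0.603 (0.579 to 0.629) of the Control level, and Dicer cKO/ScxHt was 1.63 (1.56 to 1.70). ScxHt alone stood low, just outside the limit for a lower call.

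Pdgfrb, the receptor that receives platelet-derived growth factor B (chr18:61045150-61085061, plus strand), had 1969 counts in Control, 1972 in ScxHt and 1562 in Dicer cKO. The ratio to Control was 0.824 (0.770 to 0.881) in Dicer cKO and 0.960 (0.901 to 1.02) in ScxHt, and that of Dicer cKO to ScxHt 0.873 (0.816 to 0.933). Fibroblasts can also express Pdgfrb, so it is less particular to mural cells than Rgs5. Notch3, a Notch receptor of arterial smooth muscle (chr17:32120820-32166852, minus strand), had 963 counts in Control, 664 in ScxHt and 711 in Dicer cKO. Dicer cKO held 0.767 (0.695 to 0.846) and ScxHt 0.661 (0.598 to 0.730) of the Control level, and Dicer cKO/ScxHt was 1.18 (1.06 to 1.31). Both libraries with the Scx knock-in were below Control for Notch3, whereas Pdgfrb was lower in Dicer cKO alone. Notch3 overlaps Gm17276 on the opposite strand.

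For Dicer cKO/Control, 1 of the 7 genes past the minimum (Tagln) was called higher, where 3.87% of all 13504 features tested were, and 0 were called lower, where 4.17% of all were. For ScxHt/Control 0 were called in either direction, beside 3.05% higher and 4.73% lower among all features. For Dicer cKO/ScxHt Tagln and Myh11 (2 of 7) were called higher, beside 7.67%, and 0 lower, beside 5.68%. Over the 7 genes the median log2 ratio came to -0.0055, -0.14 and 0.41 in these 3 comparisons, beside -0.03, 0.02 and -0.03 over all features tested. The sign of the first median turned under other scalings. Leaving Cnn1 out by the minimum also moves it, since the median for Dicer cKO/Control is 0.19 with Cnn1 included.

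**Figure D2:**
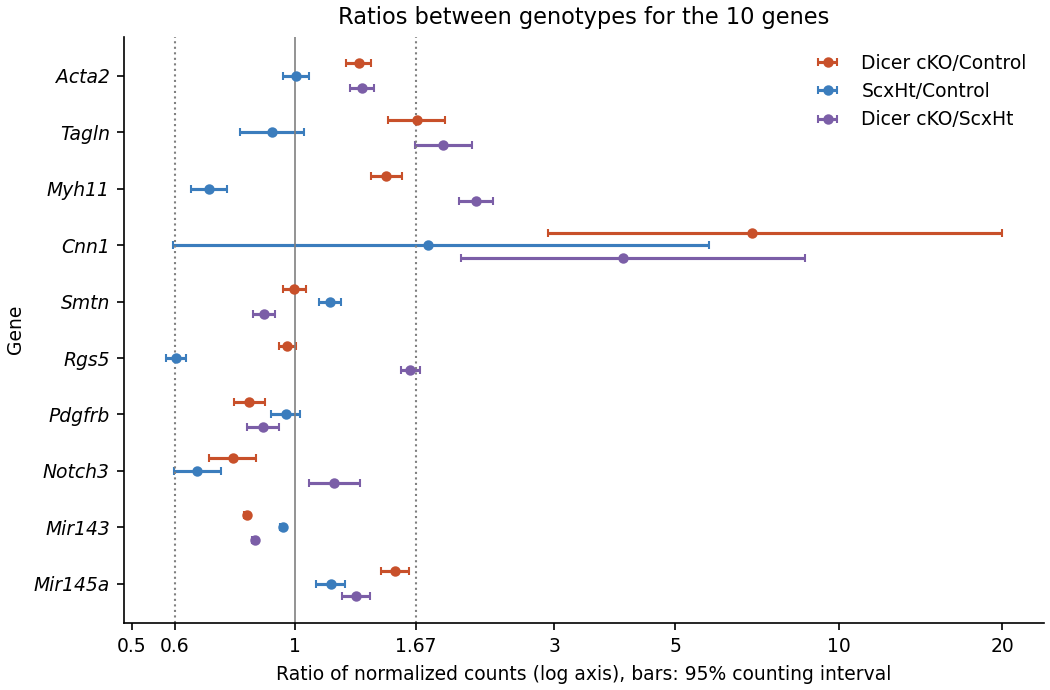
Ratio of normalized counts (log axis) for the 10 genes in the 3 comparisons between genotypes, 1 library per genotype, with bars for the 95% counting interval and dotted lines at the limits for a lower and a higher call. Tagln lies at 1.672 for Dicer cKO/Control, Myh11 at 2.15 for Dicer cKO/ScxHt, and the bars of Cnn1, which rest on few reads, are the widest.

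Quotients of 2 genes in the same library do not depend on scaling, and these were chosen after the levels had been seen. Acta2 reads per Pdgfrb read were 1.28 (1.21 to 1.36) in Control, 1.34 (1.26 to 1.42) in ScxHt and 2.03 (1.91 to 2.16) in Dicer cKO. Myh11 reads per Pdgfrb read were 0.799 (0.748 to 0.855), 0.579 (0.537 to 0.623) and 1.43 (1.34 to 1.52). Tagln reads per Pdgfrb read were 0.228 (0.205 to 0.253), 0.216 (0.194 to 0.239) and 0.463 (0.423 to 0.506). In these 3 quotients, which all rest on Pdgfrb, itself lowest in Dicer cKO, the Dicer cKO library stood above the other two by more than counting error. Acta2 reads per Notch3 read were 2.62 (2.43 to 2.82), 3.97 (3.64 to 4.33) and 4.47 (4.12 to 4.86), and the intervals of ScxHt and Dicer cKO overlapped. Myh11 reads per Rgs5 read were 0.270 (0.255 to 0.286), 0.311 (0.291 to 0.332) and 0.411 (0.391 to 0.432), again highest in Dicer cKO. Against the endothelial gene Pecam1, Acta2 was not highest in Dicer cKO, with 0.925 reads per Pecam1 read in Control, 1.25 in ScxHt and 1.02 in Dicer cKO. Pdgfrb reads per Pecam1 read were 0.722, 0.933 and 0.504, lowest in Dicer cKO. Notch3 reads per Pecam1 read were 0.353, 0.314 and 0.229. Rgs5 reads per Pecam1 read were 2.14, 1.74 and 1.75, alike in ScxHt and Dicer cKO within counting error. Myh11 reads per Pecam1 read were 0.577, 0.540 and 0.719, highest in Dicer cKO, so the order of the libraries against Pecam1 differed from gene to gene.

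Markers of other cells moved between the same libraries. The 12 endothelial genes had a median log2 ratio to Control of 0.02 in Dicer cKO and -0.54 in ScxHt, with 0.62 between Dicer cKO and ScxHt, and all 12 were below Control in ScxHt by more than counting error. Their summed share was 0.0921% of counts in Control, 0.0664% in ScxHt and 0.102% in Dicer cKO. Rgs5, Myh11 and Notch3 were also below Control in ScxHt, the library with the lowest endothelial share. Acta2 at 1.002, Tagln at 0.907 (0.792 to 1.04) and Pdgfrb at 0.960 did not differ from Control there beyond counting error. Smtn was above Control in ScxHt, at 1.16. Notch3 was below Control in Dicer cKO too, at 0.767, where the endothelial share was highest. The 14 skeletal muscle genes took 6.23% of counts in Control, 3.53% in ScxHt and 10.8% in Dicer cKO, and none was at 0 in any library. For Dicer cKO/Control 10 of them were called higher, beside 3.87% of all features, and their median log2 ratio was 0.91. The 10 tendon fibroblast genes took 13.6%, 12.0% and 7.82% of counts, with 7 called lower for Dicer cKO/Control, beside 4.17% of all features. The part of these cell types in the values of the smooth muscle genes was not tested.

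Acta2 belongs to the same gene family as Acta1, the skeletal muscle actin, which had 85448 counts in Control, 51113 in ScxHt and 130878 in Dicer cKO. Acta2 had 2.95, 5.16 and 2.43 reads per 100 Acta1 reads, so it did not follow Acta1 in proportion. This quotient cannot show whether a small part of the Acta2 reads came from skeletal muscle, which was not tested. Of the 1986 stretches of 50 bases in the Acta2 transcript, 0.352% also occur unchanged in transcripts of other genes (Actg1, Actg-ps1 and Gm12715 with equal numbers), and for Myh11 0.400% of 6500 do, led by Myh9. Tagln, Cnn1, Smtn, Rgs5 and Pdgfrb shared none, and Notch3 shared 0.0879%. Reads shorter than 50 bases or with mismatches could still be split between copies.

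Other contractile genes were spread around the members. Of 20 further contractile genes 17 passed the minimum for Dicer cKO/Control, and their median log2 ratio was 0.28. Of these, 2 were called higher and 1 lower, beside 3.87% and 4.17% of all features. Lmod1, which encodes the smooth muscle actin nucleator leiomodin, had 41 counts in Control, 51 in ScxHt and 90 in Dicer cKO, a Dicer cKO/Control ratio of 2.28 (1.56 to 3.38). Tpm1, a tropomyosin that skeletal muscle also expresses, had 16054, 17078 and 30075 counts and a ratio of 1.95 (1.91 to 1.98). Ppp1r14a, an inhibitor of myosin phosphatase, had 140, 103 and 75 counts and a ratio of 0.556 (0.415 to 0.742), opposite to the other called genes. Actg2, the enteric smooth muscle actin, had 6, 23 and 75 counts, a ratio of 13.0 (5.69 to 36.5) that did not pass the minimum. Like Cnn1, it was near the detection limit in Control and highest in Dicer cKO. Tpm1, Tpm2, Des, Pln, Synpo2 and Hspb6 of this list are expressed in skeletal muscle as well. Whether skeletal muscle also expresses others of the list, such as Ppp1r12b, was not examined, so the others are not thereby particular to smooth muscle. For ScxHt/Control 4 of 16 were called lower, beside 4.73% of all features, down to Hspb6, a small heat shock protein, at 0.425 (0.397 to 0.455). These 4 were Hspb6, Synpo2, Tpm2 and Des, all among the genes that skeletal muscle expresses as well. For Dicer cKO/ScxHt 8 of 18 were called higher, beside 7.67% of all features, up to Actg2 at 3.59 (2.23 to 6.01). Actg2, with 23 counts in ScxHt, passed the minimum at a mean of 50.3 and only through its Dicer cKO count. It could therefore be called in the higher direction alone. The 8 called included Tpm1, Tpm2, Des, Synpo2 and Hspb6.

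Of the transcription factors of this programme, Klf4, a repressor of contractile genes and a reported target of miR-145, was the lowest. It had 2323 counts in Control, 1634 in ScxHt and 816 in Dicer cKO, so that Dicer cKO stood at 0.365 (0.336 to 0.395) and ScxHt at 0.674 (0.632 to 0.718) of Control. Dicer cKO was also below ScxHt, at 0.550 (0.505 to 0.599). Klf4 is also expressed in fibroblasts and other cells. Myocd, the gene for myocardin, had 48, 49 and 65 counts, and its ratio of 1.41 (0.954 to 2.09) for Dicer cKO/Control did not differ from 1 beyond counting error. Srf, the gene for serum response factor, had 304, 256 and 346 counts, a ratio of 1.18 (1.01 to 1.38). Of the 9 factors past the minimum for this comparison 0 were called higher and Klf4 alone was called lower. Among all features 3.87% were called higher and 4.17% lower. For Dicer cKO/ScxHt, Mef2c, a muscle transcription factor, was highest at 1.91 (1.84 to 1.99) and was the 1 factor called higher. Klf4 was called lower there, and among all features 7.67% were called higher and 5.68% lower.

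None of 13 other mural cell genes past the minimum was called for Dicer cKO/Control, beside 3.87% higher and 4.17% lower among all features. The 13 ranged from Ndufa4l2 at 0.672 (0.613 to 0.737) to Vtn at 1.37 (1.04 to 1.83), with a median log2 ratio of 0.14. In ScxHt/Control the range was from Vtn at 0.511 (0.352 to 0.733), the 1 gene called lower, to Anpep at 1.24 (1.12 to 1.37). Among all features 4.73% were called lower there. Vtn, with 90 counts in Control and 48 in ScxHt, passed the minimum only through its Control count. Abcc9, a potassium channel subunit of pericytes, had 2482 counts in Control, 1611 in ScxHt and 3213 in Dicer cKO. Like Rgs5 it was lowest in ScxHt, at a ratio of 0.622 (0.584 to 0.663) to Control. Not all of the 13 followed it. In ScxHt 6 were below and 2 above Control by more than counting error, with a median log2 ratio of -0.15. Cspg4 was 1 of those above, at 1.07 (1.02 to 1.12). For Dicer cKO/ScxHt 3 of 13 were called higher, beside 7.67% of all features. Vtn was 1 of them, at 2.73 (1.94 to 3.90), and passed the minimum only through its Dicer cKO count.

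The ligands and the other receptor of the platelet-derived growth factor pathway were described beside Pdgfrb. Pdgfb, the endothelial ligand of Pdgfrb, had 302 counts in Control, 164 in ScxHt and 231 in Dicer cKO, and ScxHt stood at 0.520 (0.428 to 0.631) of Control, with Dicer cKO at 0.794 (0.666 to 0.946). Pdgfa, a ligand of Pdgfra, had 430, 432 and 228 counts, and Pdgfc, another ligand of that receptor, had 418, 407 and 171. Both were called lower for Dicer cKO/Control, at 0.551 (0.467 to 0.648) and 0.425 (0.353 to 0.509). Pdgfra itself, a fibroblast receptor, had 3651, 6025 and 2913 counts and was highest in ScxHt, at 1.58 (1.52 to 1.65) to Control. Pdgfd, another ligand of Pdgfrb, had 686, 822 and 671 counts, and its Dicer cKO/Control ratio of 1.016 (0.912 to 1.13) did not differ from 1 beyond counting error. Thus 2 of the 5 genes were called lower and 0 higher for Dicer cKO/Control, beside 4.17% and 3.87% of all features. The median log2 ratio of the 5 was -0.33.

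Of 14 Notch pathway genes beside Notch3, 1 was called higher and 1 lower for Dicer cKO/Control, with a median log2 ratio of -0.23. Among all features 3.87% were called higher and 4.17% lower. Hey2, a transcription factor induced by Notch in arteries, had 29 counts in Control, 53 in ScxHt and 90 in Dicer cKO, a ratio of 3.22 (2.10 to 5.08). With so few counts in Control, Hey2 passed the minimum only through its Dicer cKO count. Dll1, a Notch ligand, had 152, 113 and 81 counts, a ratio of 0.553 (0.417 to 0.729). Jag1, the ligand that endothelium presents to Notch3, had 637, 497 and 480 counts, a ratio of 0.783 (0.694 to 0.882). Of the 14 genes, 7 were below and 2 above Control in Dicer cKO by more than counting error. The 2 above were Hey2 and Heyl, the latter at 1.42 (1.14 to 1.77). Notch4, an endothelial receptor, was lowest for ScxHt/Control at 0.496 (0.414 to 0.593) and highest for Dicer cKO/ScxHt at 2.20 (1.85 to 2.64).

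**Figure D3:**
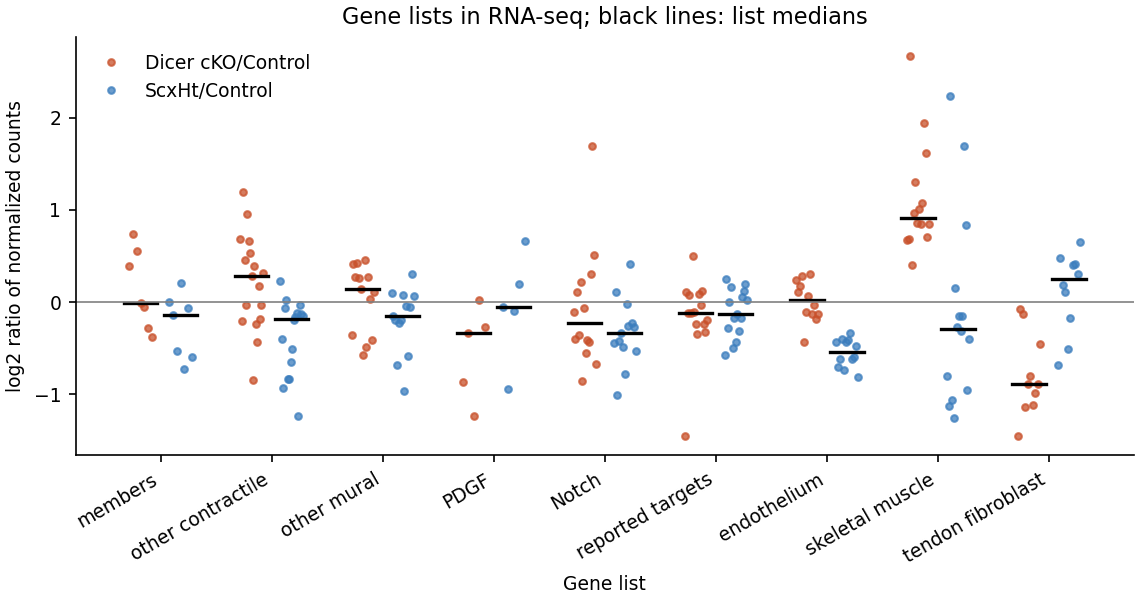
Log2 ratio of normalized counts of each gene past the count minimum, by gene list, for Dicer cKO/Control and ScxHt/Control, 1 library per genotype, with black lines at the list medians. The skeletal muscle list has a median of 0.91 for Dicer cKO/Control and the tendon fibroblast list -0.88, whereas the members and the other mural cell genes have medians of -0.0055 and 0.14.

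Mir143 and Mir145a lie on the minus strand of chromosome 18, at chr18:61649196-61649258 and chr18:61647825-61647894, with 1301 bases between the hairpins. Mir143 had 76466 counts in Control, 64432 in ScxHt and 54279 in Dicer cKO of the small RNA-seq libraries. This was 0.696% of the counts in Control, 0.764% in ScxHt and 0.643% in Dicer cKO. Mir145a had 1939 counts in Control, 1999 in ScxHt and 2585 in Dicer cKO, or 0.0176% of the counts in Control, 0.0237% in ScxHt and 0.0306% in Dicer cKO. Mir143 was thus lowest and Mir145a highest in the Dicer cKO library, both in counts and as a share of the library. The ScxHt library had the highest Mir143 share, although Control had the highest count.

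After scaling, Mir143 in Dicer cKO stood at 0.814 (0.805 to 0.823) of Control and 0.842 (0.833 to 0.852) of ScxHt, and in ScxHt at 0.949 (0.939 to 0.959) of Control. Mir145a in Dicer cKO stood at 1.53 (1.44 to 1.62) times Control and 1.29 (1.22 to 1.37) times ScxHt, and in ScxHt at 1.16 (1.09 to 1.24) times Control. Neither was called for Dicer cKO/Control, where 8.38% of 334 features were called higher and 4.19% lower. Neither was called for ScxHt/Control (3.01% and 6.93% of all) or for Dicer cKO/ScxHt (11.2% and 2.17%). By total counts the Mir143 ratio for ScxHt/Control was 1.10, so its direction in that comparison depends on the scaling. The intervals of such deeply counted loci are too narrow as errors of the ratio, since they leave out the error of the size factors.

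Within a library, Mir143 had 39.4 (37.7 to 41.3) reads per Mir145a read in Control, 32.2 (30.8 to 33.7) in ScxHt and 21.0 (20.2 to 21.9) in Dicer cKO. The 3 intervals did not overlap, and this quotient is free of scaling. Mir143 held rank 23 by count in each library, whereas Mir145a held rank 109 of 634 features with reads in Control, 102 of 625 in ScxHt and 92 of 579 in Dicer cKO. The counts are per locus and do not separate the arms of a hairpin.

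**Figure D4:**
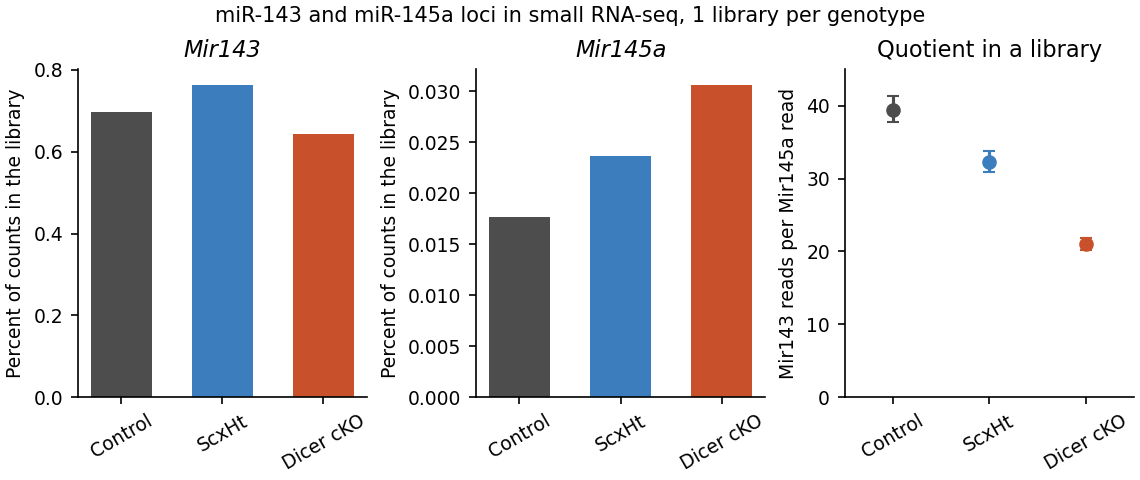
Percent of all counts from Mir143 and from Mir145a (bars, from 0) and Mir143 reads per Mir145a read (points, with bars for the 95% counting interval) in small RNA-seq of Control, ScxHt and Dicer cKO, 1 library each. Mir145a goes from 0.0176% in Control to 0.0306% in Dicer cKO and the quotient from 39.4 to 21.0.

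The difference between these neighbours was set beside that of other miRNA neighbours, a comparison chosen after the values had been seen. There were 56 pairs of adjacent loci on the same strand, at most 10000 bases apart and each with at least 200 reads in every library. The log2 ratios of Mir143 and Mir145a differed by 0.91 for Dicer cKO/Control, and 1 of the other pairs differed by as much or more, namely Mir19b-1 and Mir92-1 at 1.29. For ScxHt/Control the difference was 0.29, and 29 other pairs differed by as much or more. For Dicer cKO/ScxHt it was 0.62, and 9 did. The medians over the 56 pairs were 0.31, 0.31 and 0.20. Pairs that share a locus or have close copies elsewhere are not independent of each other.

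**Figure D5:**
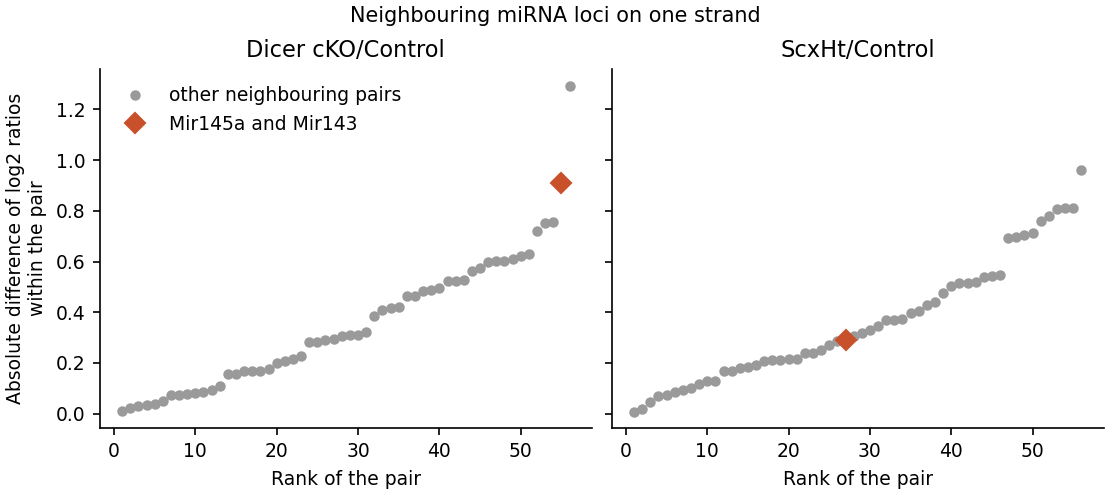
Absolute difference between the log2 ratios of adjacent miRNA loci for Dicer cKO/Control and ScxHt/Control, ranked over 56 pairs, with 1 library per genotype and Mir145a with Mir143 as a diamond. The diamond stands at 0.91 with 1 pair above it for Dicer cKO/Control, and at 0.29 near the middle for ScxHt/Control.

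The long RNA next to the cluster was lower in both knock-in libraries. The RNA-seq row Mir143hg had 456 counts in Control, 296 in ScxHt and 302 in Dicer cKO. Relative to Control, Dicer cKO was at 0.688 (0.593 to 0.797) and ScxHt at 0.622 (0.536 to 0.722), and the knock-in libraries did not differ beyond counting error, with 1.12 (0.954 to 1.32) for Dicer cKO/ScxHt. It was matched to Carmn (chr18:61649625-61665537, minus strand), a long noncoding RNA that ends 366 bases upstream of Mir143, since the length implied by its counts and RPKM, 2304 bases, equals the summed exons of Carmn. Mir143hg thus had a Dicer cKO/Control ratio below 1, as Mir143 did and Mir145a did not. Mir143 did not follow Mir143hg in the other comparisons. For ScxHt/Control Mir143hg was at 0.622 and Mir143 at 0.949, and for Dicer cKO/ScxHt they were at 1.12 and 0.842. The rows of the hairpins themselves in RNA-seq held 55, 63 and 39 counts for Mir143 and 12, 0 and 2 for Mir145a. Mir145b, annotated elsewhere on chromosome 18 (chr18:69022199-69022273), had 9, 8 and 19 counts in small RNA-seq and did not pass the minimum.

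Of 15 reported targets of miR-143 or miR-145, all past the minimum, 1 (Klf4) was called lower and 0 higher for Dicer cKO/Control. This stands beside 4.17% and 3.87% of all features, and the median log2 ratio of the targets was -0.12. The highest was Hk2, encoding a hexokinase, with 1359 counts in Control, 1002 in ScxHt and 1852 in Dicer cKO, a ratio of 1.42 (1.32 to 1.52). For ScxHt/Control 0 were called, beside 3.05% higher and 4.73% lower among all features, and the median of the targets was -0.13. For Dicer cKO/ScxHt Hk2 was called higher at 2.04 (1.88 to 2.20) and Klf4 lower, beside 7.67% and 5.68% of all features.

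Other vessel and muscle miRNAs give the background for the pair. Mir126a, the main endothelial miRNA, had 201949 counts in Control, 150234 in ScxHt and 180654 in Dicer cKO, with Dicer cKO at 1.03 (1.02 to 1.03) and ScxHt at 0.838 (0.833 to 0.844) of Control. In 7 vessel and blood miRNAs past the minimum the Dicer cKO/Control ratio ranged from Mir10a at 0.638 (0.613 to 0.665) to Mir144 at 1.37 (1.12 to 1.674). The Mir145a ratio of 1.53 (1.44 to 1.62) lay above these ratios, but its interval lay within that of Mir144. Of 6 muscle miRNA loci 4 were called higher for Dicer cKO/Control, beside 8.38% of all small RNA features tested. These 4 are the copies Mir1a-1 and Mir1a-2 and the copies Mir133a-1 and Mir133a-2. The copies had nearly equal counts, with 174274 and 174314 in Control for the Mir1a loci, so the same reads appear to have been counted at both, and the 4 calls are not independent. Mir206, a skeletal muscle miRNA, had 310922 counts in Control, 134734 in ScxHt and 408434 in Dicer cKO. Mir145a had its highest value in the library with the highest Mir206 count, but the other libraries did not follow the same order. ScxHt had the lowest Mir206 count, yet its Mir145a stood at 1.16 (1.09 to 1.24) times Control. The part of skeletal muscle in the Mir145a value was not tested.

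The patterns most like those of the members were sought by the distance between log2 ratios to Control over the 3 libraries. Among 196 small RNA features, Mir29c, Mir154 and Mir23a were nearest to Mir143, with ratios of 0.825 to 0.833 between Dicer cKO and Control. For Mir145a the nearest were Mir6236 with 1.495, Mir34a with 1.45 and Mir337 with 1.498. Among 7741 genes, Mrpl42, Trmt1 and Dcaf13 were nearest to Acta2, at 1.31, 1.31 and 1.30. None of these is a member or stands on a list used here, and with 3 libraries many features lie close together.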

How the data were processed

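Total RNA from the Achilles tendon of 1 mouse per genotype was sequenced as paired-end RNA-seq and as small RNA-seq. Per the labels, the RNA-seq and small RNA-seq library of a genotype carry the same sample number. The authors trimmed adaptors, mapped reads to GRCm38 (mm10) with TopHat and Bowtie2, and assigned them with HTSeq to give the deposited raw read counts. The authors also deposited RPKM values, computed from these counts and a length per gene, in which the levels are given here. In RNA-seq 10250 features with at least 100 reads gave the same length from each library within 0.795%.

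Counts were scaled with DESeq2 1.42.0 size factors of the 2 libraries compared (R 4.3.3). Intervals came from scipy 1.17.1. The ratio limits and the minimum of 50 in RNA-seq were taken from the study, and 15 was used in small RNA-seq as the study does. No test was run. On simulated 3-fold changes, 190 of 190 changed RNA-seq genes and 64 of 64 small RNAs were called for Dicer cKO/Control, as were 7 of 13264 and 7 of 271 unchanged ones, and 95.5% and 90.5% of intervals held the true ratio. The simulated counts held counting error alone, without spread between mice. They check the computation and give no rate of false calls between mice, nor a rate for changes smaller than 3-fold.

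Members and gene lists were chosen with earlier results of these data known. Named beside the members are genes called for Dicer cKO/Control and the highest or lowest of a list in a comparison, left out where no result on a member turned on them. Abcc9, Srf, Jag1, Mir126a, Mir145b, Pecam1 and Acta1 were added after their values were seen. Alternatives were another scaling, minimum, limit or pseudocount. Of the lists, Schwann cell genes (5 of 6 called higher for Dicer cKO/Control), adipocyte genes (1 of 6 called lower) and actins (1 of 5 called higher, Actc1) are counted here only. Among all features 3.87% were called higher and 4.17% lower. The Schwann cell gene Mal, with 36 counts in Control, passed the minimum only through its Dicer cKO count. Mature sequences of miR-143 and miR-145a were not used here.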

Additional observations from a re-analysis of the deposited data

How the results depend on the processing

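No paired analysis was possible because each genotype had 1 library per assay, and for the same reason no replicate could be left out. Over 10 alternatives, 110 of 120 counts of members called stayed within 1.5 times. Most of these counts were 0 in the main setting, so they could move only if a member became called. Under the other scalings and the pseudocount, 140 of 150 member ratios stayed on their side of 1. The median log2 ratio of the RNA-seq members for Dicer cKO/Control, -0.0055, turned to 0.018 with edgeR TMM, 0.059 by total counts, 0.010 with DESeq2 size factors over 3 libraries, 0.021 by total counts without features above 1%, and 0.19 with a minimum of 10 or none, which admits Cnn1. With a minimum of 10 or none, 2 members (Cnn1 and Tagln) were called higher for Dicer cKO/Control, and 0 were with limits of 2 and 0.5 or with the whole interval past the limit. For ScxHt/Control, 1 (Rgs5) was called lower with TMM or with 3-library size factors, and 1 (Cnn1) higher with no minimum. For Dicer cKO/ScxHt, 1 (Myh11) stayed called higher with limits of 2 and 0.5 or by the whole interval, and 3 (Cnn1, Tagln and Myh11) were called with a minimum of 10 or none. In small RNA-seq by total counts 1 (Mir145a, at 1.74) was called higher for Dicer cKO/Control. Total counts also moved the median log2 ratio of all features, by 0.11 for ScxHt/Control in RNA-seq and by 0.18 (Dicer cKO/Control) and 0.21 (ScxHt/Control) in small RNA-seq, and the share of higher among called features from 48.2% to 60.4% (Dicer cKO/Control) and from 39.2% to 58.5% (ScxHt/Control) in RNA-seq and from 66.7% to 83.6% and 30.3% to 71.4% in small RNA-seq. Counting error limits Cnn1 and Actg2, each with 6 reads in Control, and the lack of replicate mice limits every comparison.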
